A study of Homo sapiens with 24 samples.

Results

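Transcripts of 8 genes were followed in neuronal aggregates exposed to the complex I inhibitor rotenone: the neurotrophins BDNF and NTF3, their receptors NTRK2, NTRK3 and NGFR, and the ligand GDNF with its receptors GFRA1 and RET. The genes were taken by name, and their probes were the 18 probes of the array whose RefSeq transcript belongs to 1 of the 8 genes, among 48316 probes and 21239 genes tested. The filter on dim spots kept 17 of the 18 probes, and at least 1 probe of each gene. The cells were LUHMES, a conditionally immortalized line from human mesencephalon that becomes dopaminergic neuron-like in culture, grown as 3D aggregates. Of the 8 groups of 3 arrays, 4 were collected on day 8 and 4 on day 15. On day 7 the aggregates received DMSO, the vehicle, or rotenone at 50 nM for 12 h, 50 nM for 24 h or 100 nM for 24 h. In the scheme of the methods, given for 24 h exposures, the day 8 groups were collected right after exposure. The day 15 groups were collected after the compound had been washed out and the aggregates had recovered for 7 days. For the 12 h groups the labels do not give the hours of dosing and collection. The labels give no exposure time for DMSO either, so whether the vehicle time matched the 12 h groups is not known from them. The differentiation medium, with dibutyryl-cAMP, tetracycline, N2 and GDNF protein, was common to all groups, so that the RET ligand was supplied from outside in controls and treated aggregates alike. The samples were separate wells of a single cell line, and p-values therefore measure the spread between these samples. Whether the replicates came from independent cultures is not stated. As the replicate number was also the array slide, a difference between cultures and one between slides cannot be told apart.

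Neurotrophins are secreted survival factors that are made as precursors and cut to their mature form. BDNF binds the receptor tyrosine kinase TrkB, the product of NTRK2, and neurotrophin 3, the product of NTF3, binds TrkC, the product of NTRK3, while the p75 receptor, the product of NGFR, binds all neurotrophins and their precursors. GDNF binds the membrane-anchored co-receptor GFRA1, and the pair then activates the receptor tyrosine kinase RET. GDNF and BDNF are both known as survival factors of midbrain dopaminergic neurons.

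The genes lie apart in the genome, with only GFRA1 and RET on the same chromosome (GRCh38.p14, RefSeq gene bounds): BDNF at chr11:27654893-27722030, NTF3 at chr12:5430332-5495299, NTRK2 at chr9:84668522-85027054, NTRK3 at chr15:87859751-88256739, NGFR at chr17:49495293-49515008, GDNF at chr5:37812677-37840041, GFRA1 at chr10:116056925-116274705 and RET at chr10:43077069-43130351. Upstream sequence from RefSeq was found for 22 start sites of 7 of the genes. The windows below, the 250 bases before a start site, belong to the members that the results turn on. They are written 5′ to 3′ on the strand of the gene, and capitals mark GC boxes (GGGCGG) and cAMP response element half-sites (TGACG) on either strand. The medium held a cAMP analogue, and for BDNF a window with each motif is shown.
NTRK3, chr15:88256740-88256989, minus strand: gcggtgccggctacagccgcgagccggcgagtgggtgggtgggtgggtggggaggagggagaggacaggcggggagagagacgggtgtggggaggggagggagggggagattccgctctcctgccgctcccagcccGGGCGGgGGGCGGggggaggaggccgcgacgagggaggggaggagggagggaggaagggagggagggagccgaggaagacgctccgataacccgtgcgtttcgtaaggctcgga
RET, chr10:43076819-43077068, plus strand: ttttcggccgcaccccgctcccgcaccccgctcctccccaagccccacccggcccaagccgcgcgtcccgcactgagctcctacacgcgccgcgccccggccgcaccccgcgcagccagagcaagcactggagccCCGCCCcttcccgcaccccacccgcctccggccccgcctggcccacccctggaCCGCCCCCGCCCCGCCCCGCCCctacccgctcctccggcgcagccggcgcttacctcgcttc
BDNF, distal start, chr11:27722031-27722280, minus strand: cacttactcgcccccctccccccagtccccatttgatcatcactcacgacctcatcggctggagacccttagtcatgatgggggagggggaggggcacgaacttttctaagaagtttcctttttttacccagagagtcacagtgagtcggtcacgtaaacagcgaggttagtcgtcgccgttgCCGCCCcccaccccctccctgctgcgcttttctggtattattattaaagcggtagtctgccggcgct
BDNF, start 4, chr11:27701622-27701871, minus strand: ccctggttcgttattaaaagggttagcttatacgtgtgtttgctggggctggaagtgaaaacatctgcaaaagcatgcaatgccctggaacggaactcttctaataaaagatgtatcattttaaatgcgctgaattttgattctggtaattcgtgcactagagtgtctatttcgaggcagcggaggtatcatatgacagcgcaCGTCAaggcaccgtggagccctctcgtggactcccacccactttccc

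The NTRK3 window was 73.2% G or C and held 2 GC boxes, and the RET window was 79.6% G or C with 5 matches, of which the last 3 overlap. Of the 22 windows of the genes, 11 held a GC box and 4 a half-site. Among all 35116 windows of 250 bases, 42.6% held a GC box and 21.2% a half-site. A match describes the letters only, and which start sites were in use was not measured.

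The share of spots marked as well above background was 67.3% to 82.4% on slide 1 but 50.9% to 62.4% on slides 2 and 3. Each slide held 1 array of each group. All 9 markers of neurons were well above background in all groups, with TUBB3 at a log2 signal of 15.88 and MAP2 at 14.66 in day 8 controls. The dopaminergic markers went both ways between days in DMSO. TH, the enzyme of dopamine synthesis, was at 9.78 ± 0.087 (SD, n = 3) on day 8 and 6.84 ± 0.12 on day 15. The means of SLC6A3 (8.22 and 6.15), EN1 (9.28 and 8.79) and DDC (4.65 and 4.33) were lower on day 15 too. Those of NR4A2 (6.18 and 7.76), FOXA2 (4.44 and 5.82), KCNJ6 (5.21 and 6.37), LMX1B (5.1 and 5.83) and PITX3 (7.48 and 7.94) were higher. Of 11 dopaminergic markers 8 were well above background on all 3 day 8 control arrays, and SLC18A2, ALDH1A1 and FOXA2 (2 of 3 arrays) were not. The same held for 4 of 5 progenitor markers (NES at 10.45 and HES5 at 8.18, but not SOX2), 0 of 6 astrocyte, 4 of 5 oligodendrocyte, 2 of 5 Schwann cell or neural crest, 2 of 5 microglia and 2 of 5 fibroblast markers. SOX10, GFAP and P2RY12 were at or near background, MBP, MOG, PMP22, ERBB3, TMEM119 and PTPRC were at 4.42 to 5.75, and the oligodendrocyte lineage factors OLIG1 and OLIG2 were at 12.59 and 9.36 on day 8 and 7.42 and 5.36 on day 15 in DMSO. The scan name of day 15 DMSO replicate 1 did not name DMSO, so that its group rests on its label, and every comparison with DMSO on day 15 includes this array.

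For 6 of the 8 genes at least 1 group had the same probe marked on its 3 arrays: BDNF, NTF3, NTRK3, NGFR, GFRA1 and RET. NTRK3, the TrkC gene, fell with rotenone on day 8, NGFR fell after 24 h of 50 nM, and the level of BDNF rose after 12 h. At the gene level, the 12 h calls of NTRK3 and BDNF were lost when any of the 6 compared arrays was left out. NTF3, GFRA1 and the gene average of RET showed no difference past the test under rotenone, although the 2 probes of RET moved apart. GDNF and NTRK2 were near background, and no single probe of either was marked on more than 2 of the 3 arrays of a group. Counting any probe, the marks of both genes were on all 8 arrays of slide 1, while slide 2 had 4 for GDNF and 3 for NTRK2 and slide 3 had 2 and 0. Since RNA came from whole aggregates, fewer cells of a type and less RNA per cell cannot be told apart.

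**Figure D1:**
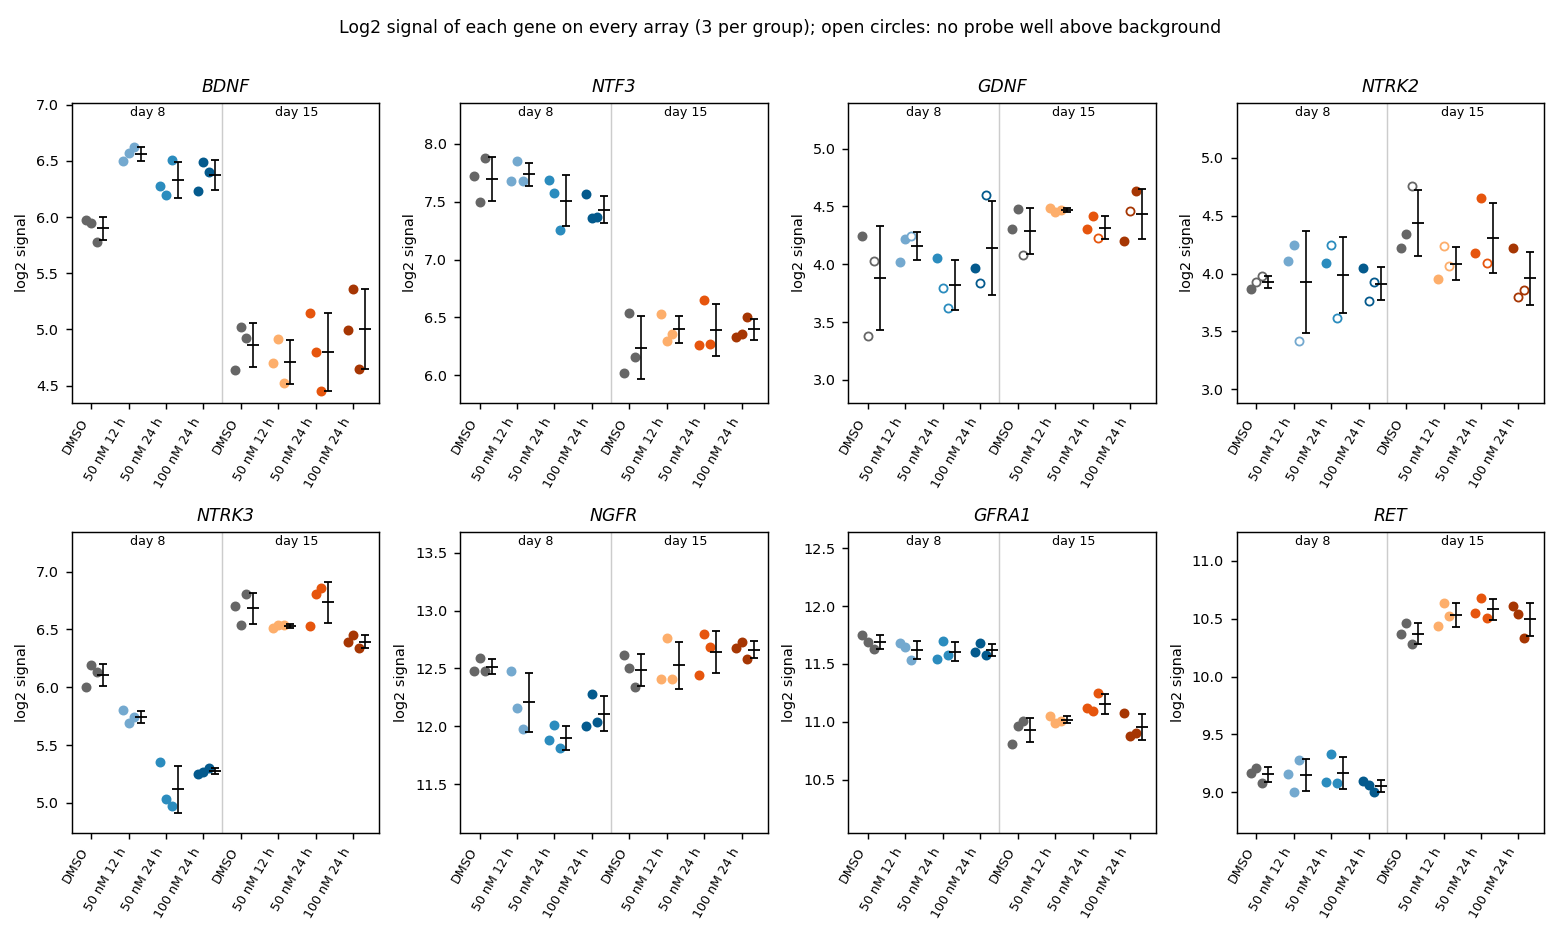
Log2 signal (y axis) of each of the 8 genes on every array, by group (x axis), 3 arrays per group; black bars give mean and SD and open circles arrays on which no probe of the gene was well above background. NTRK3 is lower in the rotenone groups of day 8 than in DMSO, BDNF and NTF3 are lower and RET higher on day 15 than on day 8, and GDNF and NTRK2 lie near 4 throughout, with open circles in every group but GDNF after 50 nM for 12 h on day 15.

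In the comparison of 50 nM for 12 h with DMSO on day 8, 1 of the 8 genes was higher (BDNF) and 1 lower (NTRK3) at an adjusted p under 0.05, where 2.66% of all genes were higher and 2.85% lower, 5.52% in all. After 24 h of 50 nM, 2 genes were lower (NTRK3 and NGFR) and 0 higher, where 4.36% of all genes were lower and 3.66% higher, 8.02% in all. After 24 h of 100 nM 1 was lower (NTRK3) and 0 higher, where 5.41% of all genes were lower and 4.07% higher, 9.48% in all. The arrays of the 2 groups did not overlap for 3 of the 6 measured genes in each of these comparisons, BDNF, NTRK3 and NGFR, against 23.6%, 28.1% and 28.5% of all genes. Between the days in DMSO, 2 genes were higher on day 15 (NTRK3 and RET) and 3 lower (BDNF, NTF3 and GFRA1), where 10.1% of all genes were higher and 13.2% lower, 23.2% in all. The arrays of the 2 days did not overlap for 5 of the 6, against 40% of all genes. In these counts without overlap the 6 were picked by their marks, while all genes include those near background.

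**Figure D2:**
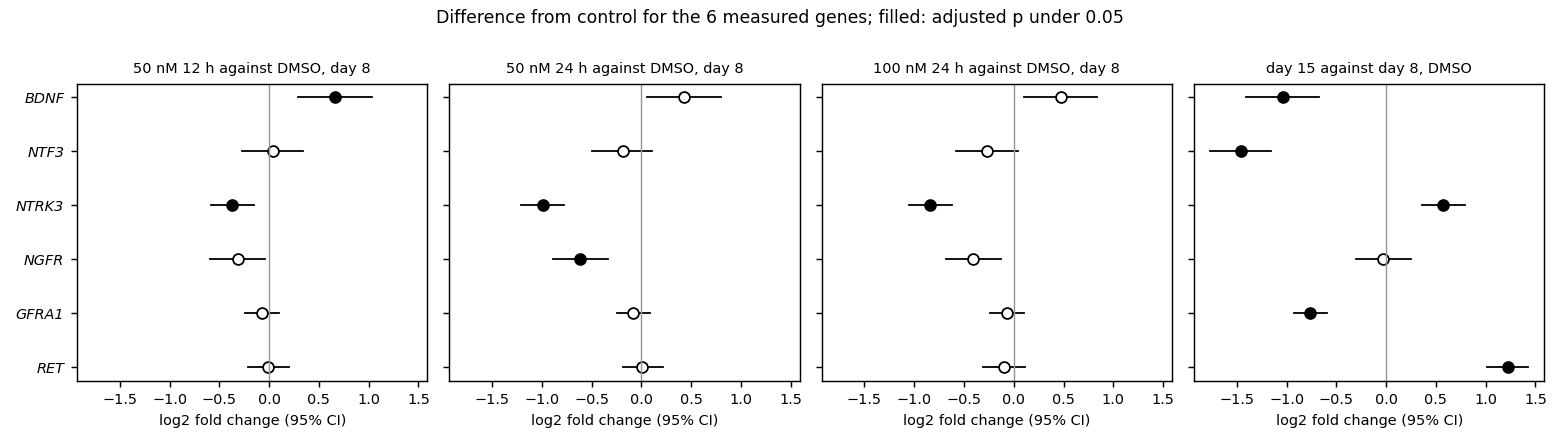
Log2 fold change (x axis) with its 95% confidence interval for the 6 measured genes (y axis) in 4 comparisons; filled points have an adjusted p under 0.05 (limma, over 21239 genes). NTRK3 is the gene with a filled point left of 0 in all 3 rotenone comparisons, while GFRA1 and RET lie at 0 there and move in opposite directions between the days. The NTRK3 call at 12 h was lost with any of the 6 compared arrays left out.

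BDNF, the ligand of TrkB, was at log2 signals of 5.97, 5.95 and 5.78 in day 8 controls and 6.50, 6.57 and 6.62 after 12 h of 50 nM rotenone. It was at 6.28, 6.20 and 6.51 after 24 h of 50 nM and at 6.23, 6.49 and 6.40 after 24 h of 100 nM. All 9 arrays with rotenone were above the 3 controls. The log2 fold change was 0.66 ± 0.18 (SE) at 12 h (1.58-fold, 95% interval 0.29 to 1.03, adjusted p = 0.031), 0.43 after 24 h of 50 nM (adjusted p = 0.16) and 0.47 after 100 nM (adjusted p = 0.11). Within the slides, the 12 h difference was 0.56, 0.61 and 0.86. The 12 h call was lost when any of the 6 arrays was left out (adjusted p 0.063 to 0.12). Of its 2 probes, A_23_P127891 was well above background on all 24 arrays, at 7.09, 7.01 and 7.08 in controls and 7.86, 7.98 and 7.73 after 12 h. This probe rose by 0.80 after 12 h (adjusted p = 0.0017 over all probes), 0.53 after 24 h of 50 nM (adjusted p = 0.024) and 0.56 after 100 nM (adjusted p = 0.014), where 2.45%, 3.6% and 4.46% of all probes were called. Its 12 h call held with each array left out in turn (adjusted p 0.0041 to 0.015). The calls at 24 h did not hold throughout, with adjusted p between 0.039 and 0.1 after 50 nM and between 0.034 and 0.066 after 100 nM. A_32_P7316, marked on 15 of 24 arrays, differed by 0.53, 0.33 and 0.38 (adjusted p = 0.68, 0.85 and 0.77). BDNF-AS, the antisense transcript at this gene, differed by -0.27, 0 and -0.48, none past the test.

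Between the days, BDNF declined in DMSO to 4.64, 5.02 and 4.92 on day 15, 2.05-fold lower (log2 fold change -1.04 ± 0.18, adjusted p = 0.00022). Of its probes, A_32_P7316 was marked on 0 or 1 of the 3 arrays in each day 15 group, at a mean of 3.99 in DMSO. The gene average of day 15 thus includes a probe near background. A_23_P127891 had means of 7.06 on day 8 and 5.73 on day 15 in DMSO, a difference of -1.46 to -1.19 with single arrays left out. On day 15 the gene average in the rotenone groups overlapped with DMSO, at 4.45 to 5.36, and its differences were -0.15, -0.06 and 0.14. The order of the group means was day 8 12 h, 100 nM, 50 nM for 24 h and DMSO, followed by the 4 groups of day 15, which did not separate from each other. The change of the 12 h effect between days was -0.82 for the gene (adjusted p = 0.14) and -0.93 ± 0.18 for probe A_23_P127891 (adjusted p = 0.034). The call of the probe was lost with the replicate block (0.051) and with the processed signal (0.46), and its adjusted p was 0.015 to 0.11 with single arrays left out.

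NTF3, the ligand of TrkC, was at 7.72, 7.50 and 7.88 in day 8 controls and between 7.26 and 7.85 in the 3 rotenone groups of that day, with overlap in each. The log2 fold changes were 0.04, -0.19 and -0.27 (adjusted p = 0.96, 0.55 and 0.33). On day 15 it was at 6.02, 6.54 and 6.16 in DMSO, 2.76-fold lower than on day 8 (log2 fold change -1.46 ± 0.15, adjusted p = 4.6e-07). All 12 arrays of day 15 were below all 12 of day 8. Within the slides the difference between days was -1.68, -0.92 and -1.75. GDNF transcript was near background throughout, with group means from 3.82 to 4.47, and no fold is given. One of its 4 probes was marked on no array and was left out by the filter.

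NTRK3, which encodes TrkC, was at 6.0, 6.19 and 6.13 in day 8 controls and 5.80, 5.69 and 5.74 after 12 h of 50 nM. After 24 h it was at 5.35, 5.03 and 4.97 with 50 nM and 5.25, 5.27 and 5.30 with 100 nM. Every rotenone array of day 8 was below every control, and every array at 24 h was below every array at 12 h. NTRK3 fell 1.99-fold after 24 h of 50 nM (log2 fold change -0.99 ± 0.10, 95% interval -1.21 to -0.78, adjusted p = 1.2e-05) and 1.78-fold after 100 nM (-0.84, -1.05 to -0.62, adjusted p = 3.6e-05). Within the slides these differences were -0.63, -1.17 and -1.17 for 50 nM and -0.74, -0.92 and -0.83 for 100 nM. The calls at 24 h held with each array left out in turn. The difference at 12 h was -0.37 ± 0.10 (adjusted p = 0.043), and it missed the threshold when any of the 6 arrays was left out (0.055 to 0.16) and with the replicate number as a block (0.066). Of the other settings 8, the block among them, lost this call.

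NTRK3 was lower after 24 h than after 12 h of 50 nM, by -0.63 on the log2 scale (95% interval -0.84 to -0.41, adjusted p = 0.007), in a comparison that called 1 of the 8 and 0.537% of all genes, 0.268% in each direction. Without replicate 3 of 50 nM for 24 h the adjusted p was 0.051. Between 100 and 50 nM for 24 h the difference was 0.16 (95% interval -0.06 to 0.37, adjusted p = 1), in a comparison that called 0% of the genes.

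On day 15 NTRK3 was at 6.70, 6.54 and 6.81 in DMSO, 1.49-fold higher than on day 8 (log2 fold change 0.57, adjusted p = 0.0004). After recovery it was at 6.51, 6.54 and 6.54 following 50 nM for 12 h and 6.53, 6.81 and 6.86 following 50 nM for 24 h, overlapping with DMSO. Following 100 nM it was at 6.39, 6.45 and 6.34, below all 3 controls, but the difference of -0.29 (95% interval -0.51 to -0.07) was not past the test (adjusted p = 0.63). The effect of 50 nM for 24 h differed between the days by 1.04 ± 0.15 (adjusted p = 0.001), whereas for 100 nM the difference was 0.55 (adjusted p = 0.055) and for 12 h 0.21 (adjusted p = 0.66). The interaction called 2 of the 8 genes at 50 nM for 24 h, NTRK3 and NGFR, where 2.16% of all genes were called. On day 8, the mean level of the 9 neuron markers per array was 12.84 to 12.96 in controls, 12.61 to 12.70 with 50 nM and 12.67 to 12.70 with 100 nM. Of these markers, 2 were lower with 50 nM, ELAVL4 by -0.71 and MAP2 by -0.49, and 3 with 100 nM, ELAVL4 by -0.51, MAP2 by -0.57 and SNAP25 by -0.30. DCX differed by -0.53 and -0.45, not past the test, and STMN2 by 0.11 and 0.04. Their part in the results for NTRK3 and NGFR was not tested.

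The 3 probes of NTRK3 were designed to transcripts for different forms of TrkC. Probe A_33_P3322814 is assigned to a transcript for the form that lacks the kinase domain and was at 6.30, 6.40 and 6.32 in day 8 controls, 4.99, 5.06 and 5.04 after 24 h of 50 nM and 4.90, 5.20 and 5.32 after 100 nM. It fell by 1.31 and 1.20 on the log2 scale (adjusted p = 2e-05 and 2.4e-05). Probe A_23_P205900, assigned to a kinase form with an insert, fell by 1.15 and 0.90 (adjusted p = 0.0028 and 0.013), although 1 of the 3 arrays of 50 nM for 24 h was not well above background. Without single arrays its adjusted p for 100 nM ranged from 0.015 to 0.075. Probe A_33_P3260134, assigned to the kinase form without insert, differed by -0.52 and -0.40 (adjusted p = 0.053 and 0.15), and its arrays with rotenone were below its controls too. All 3 probes thus pointed down, by unequal amounts. The difference between the kinase probe without insert and the kinase-lacking probe, formed array by array, was 0.79 at 50 nM (adjusted p = 0.083) and 0.80 at 100 nM (adjusted p = 0.058) over 10231 pairs of probes of 1 gene, and did not pass the test.

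Between the days the probes of NTRK3 parted. In DMSO the kinase-lacking probe was at 6.27, 6.23 and 6.74 on day 15 (difference 0.07, adjusted p = 0.81), whereas the probe of the kinase form with insert was at 7.25, 6.89 and 7.21 (1.05, adjusted p = 0.0015) and that of the form without insert at 6.58, 6.51 and 6.48 (0.60, adjusted p = 0.0081). The probe of the kinase form with insert gained 0.98 over the kinase-lacking one (adjusted p = 0.033), where 3.61% of probe pairs were called. This call was lost with the replicate block (0.052) and with the processed signal (0.057), and the adjusted p was 0.044 to 0.15 with single arrays left out. Which other transcripts each probe binds was not tested.

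**Figure D3:**
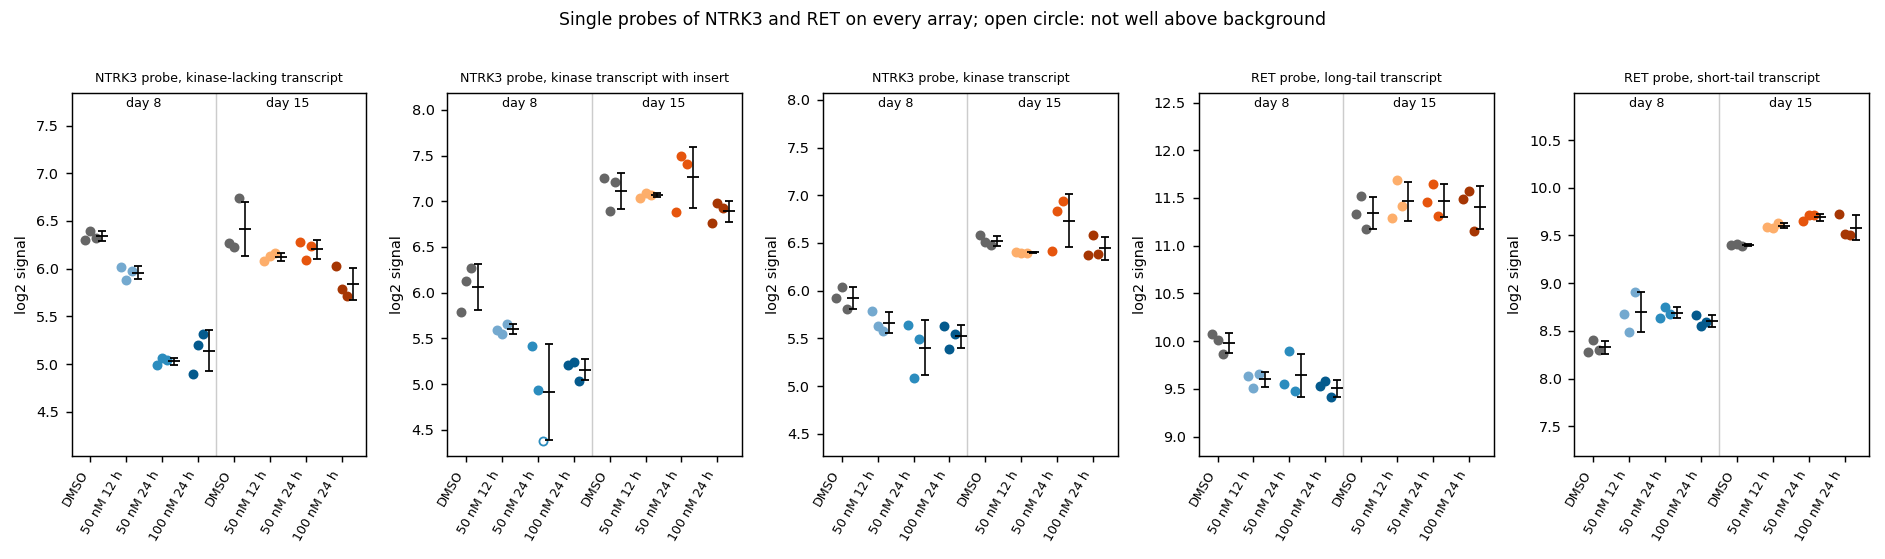
Log2 signal (y axis) of the 3 probes of NTRK3 and the 2 of RET on every array by group (x axis), with mean and SD as black bars; the open circle is the array not well above background. The kinase-lacking NTRK3 probe falls after 24 h of rotenone and is level between days in DMSO, the kinase probes are higher on day 15, and on day 8 the 2 RET probes lie on opposite sides of their controls.

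NGFR, which encodes p75, was at 12.48, 12.59 and 12.48 in day 8 controls and 11.88, 12.01 and 11.81 after 24 h of 50 nM. It was 1.53-fold lower there (log2 fold change -0.62 ± 0.13, 95% interval -0.89 to -0.34, adjusted p = 0.0058), with -0.60, -0.58 and -0.67 in the 3 slides. Adjusted over all genes, the call held with each array left out. NGFR has a single probe, and adjusted over all probes its p was 0.028 to 0.077 with single arrays left out, so that this call did not hold throughout. After 100 nM it was at 12.00, 12.28 and 12.04, again below all controls, by -0.41 (95% interval -0.68 to -0.13, adjusted p = 0.061). This comparison passed the test with the replicate block (0.038) and without replicate 2 of the 100 nM group (0.047). The 12 h arrays, at 12.48, 12.16 and 11.98, reached up to the lowest control without passing it (-0.31, adjusted p = 0.22). In DMSO the level did not move between the days beyond its spread, at 12.62, 12.50 and 12.34 on day 15 (difference -0.03, 95% interval -0.30 to 0.25). After recovery NGFR was between 12.41 and 12.80 in the rotenone groups. The effect of 50 nM for 24 h differed between days by 0.77 ± 0.19 (adjusted p = 0.036). That call rested on most single arrays, since the adjusted p was between 0.025 and 0.099 when 1 of 12 was left out. Adjusted over all probes, the p of its single probe was 0.065 to 0.23 in these refits, past the test in none. For 100 nM the difference between days was 0.58 (adjusted p = 0.12). NTRK2, which encodes TrkB, was near background in every group, with means from 3.92 to 4.44, and its 3 probes were marked on 11, 2 and 1 of 24 arrays.

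GFRA1, the co-receptor of GDNF, was at 11.75, 11.69 and 11.63 in day 8 controls and between 11.53 and 11.70 in the rotenone groups of that day. The differences were -0.07, -0.08 and -0.07, none past the test. On day 15 it was at 10.81, 10.96 and 11.01 in DMSO, 1.7-fold lower (log2 fold change -0.76 ± 0.081, adjusted p = 9.5e-07). All arrays of day 15 were below all of day 8. Following 50 nM for 24 h and recovery it was at 11.12, 11.09 and 11.25, above the 3 controls by 0.23 (95% interval 0.06 to 0.40, adjusted p = 1). Its 2 probes, assigned to the same transcript, differed from DMSO by -0.44 and 0.30 after 12 h (adjusted p = 0.14 and 0.45), and the difference between them, -0.74, passed the test only with the replicate block (adjusted p = 0.23 and 0.014).

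RET, the signalling receptor of GDNF, showed the largest rise between days of the 6 measured genes. It was at 9.17, 9.21 and 9.08 in DMSO on day 8 and 10.37, 10.46 and 10.28 on day 15, 2.33-fold higher (log2 fold change 1.22 ± 0.099, adjusted p = 3e-08), with 1.20, 1.26 and 1.20 in the 3 slides. Under rotenone on day 8 the gene average lay between 9.0 and 9.33, overlapping with DMSO in each group, and differed by -0.01, 0.01 and -0.10. The co-receptor and the receptor thus moved in opposite directions over the 7 days in control aggregates. The markers of dividing cells moved with the days as well: 5 of 5 were lower on day 15, with a mean level of 5.36 to 6.18 on day 8 and 4.16 to 4.32 on day 15 in DMSO. In day 8 controls all 5 were well above background, MKI67 and TOP2A among them, and their part in the differences between days was not tested.

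The gene average of RET hid a difference between its probes. Probe A_23_P202245 is assigned to the transcript for the long C-terminal tail and A_33_P3562537 to that for the short tail, which are alternative ends of the same receptor. Which other transcripts each probe binds was not tested. On day 8 the long-tail probe was at 10.07, 10.01 and 9.86 in controls and between 9.41 and 9.90 in the rotenone groups. The short-tail probe was at 8.28, 8.40 and 8.30 in controls and between 8.49 and 8.91 with rotenone. Alone, neither probe passed the test, with differences of -0.38, -0.34 and -0.48 for the long tail (adjusted p = 0.26, 0.3 and 0.078) and 0.37, 0.37 and 0.28 for the short tail (adjusted p = 0.067, 0.053 and 0.16). Formed array by array, the long-tail minus the short-tail probe was lower than in DMSO by -0.75 ± 0.15 after 12 h, -0.70 after 24 h of 50 nM and -0.76 after 100 nM (adjusted p = 0.016, 0.027 and 0.011 over 10231 probe pairs). In these comparisons 1.08%, 0.87% and 1.49% of pairs were called. Relative to the mean of the controls, the 3 control arrays were at -0.10 to 0.14, and the 9 arrays with rotenone were at -0.90 to -0.50. The test of probe pairs was chosen after the values of single probes were seen. With the replicate block the adjusted p was 0.0011, 0.0032 and 0.0011, but with single arrays left out it ranged from 0.034 to 0.097 for 12 h, from 0.031 to 0.16 for 50 nM and from 0.023 to 0.07 for 100 nM, while the difference itself stayed between -0.82 and -0.62. On day 15 the differences were -0.08, -0.16 and -0.13 (adjusted p = 1, 1 and 0.86), and the change between days was 0.67, 0.55 and 0.63 (adjusted p = 0.38, 0.73 and 0.38), so that a difference between the days was not shown. Both probes rose between days in DMSO, by 1.36 and 1.08 (adjusted p = 2.2e-06 and 4.3e-07), and were among 8 of the 17 probes called between days, where 12.6% of all probes were called.

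**Figure D4:**
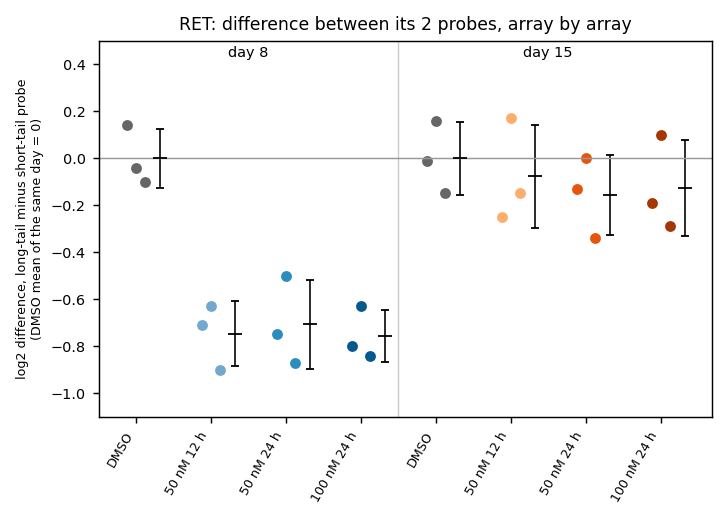
Difference of log2 signal between the long-tail and the short-tail probe of RET on each array (y axis), relative to the DMSO mean of the same day, by group (x axis); black bars give mean and SD of 3 arrays. All 9 rotenone arrays of day 8 lie between -0.90 and -0.50 and below the controls, and on day 15 all arrays lie between -0.34 and 0.17.

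After recovery 0 of the 8 genes passed limma's test in any comparison with DMSO on day 15, where 0% of all genes were called in each. At an unadjusted p under 0.05 there were 0, 2 (GFRA1 and RET) and 2 (NTRK3 and NTRK2) of the 8 for 50 nM for 12 h, 50 nM for 24 h and 100 nM, and 737, 697 and 1532 of all genes (3.47%, 3.28% and 7.21%). The arrays of the groups did not overlap for 0, 2 and 1 of the 6 measured genes, against 7.42%, 7.15% and 7.83% of all genes, those near background included. The 6 measured genes differed from DMSO by -0.29 to 0.23 on the log2 scale. Replicate 3 of 100 nM on day 15 deviated more from its group means, with an SD over genes of 0.45 against 0.2 to 0.31 on the other arrays. At 100 nM, 8 of all genes were called with an offset of 50, 5 with the filter on the mark and 10 with the deposited values. With single arrays left out, 0 of the 8 genes followed here were called in this comparison.

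The other genes of the 2 pathways were followed in lists by role, with 97 genes tested. On day 8, 14 were higher and 8 lower after 12 h of 50 nM, 10 higher and 7 lower after 24 h of 50 nM and 14 higher and 12 lower after 100 nM, which is 22.7%, 17.5% and 26.8% of the 97 against 5.52%, 8.02% and 9.48% of all genes. Between days in DMSO 26 were higher and 11 lower, 38.1% against 23.2%. The 2 sets are unlike, as the lists were chosen with earlier results known and all genes include many near background. With the filter on the well-above-background mark, 1580, 2210 and 2581 of 15606 genes were called on day 8 and 5583 between days. Whether the lists exceed such genes was not tested. On day 15, 0 were called by limma in any of the 3 comparisons with DMSO. The counts of day 8 depended on the correction of slide 1: without it 3, 7 and 10 were called, and with single arrays left out 12 to 16, 11 to 15 and 16 to 21.

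Among the other ligands and co-receptors of the GDNF family, GAS1 and PSPN moved most. GAS1, a membrane protein related to the GFRA co-receptors that can bind RET, rose by 1.05, 0.99 and 0.92 on day 8 (adjusted p = 5e-05, 4.7e-05 and 7e-05). PSPN, the ligand persephin, fell by 0.56, 1.03 and 0.99 (adjusted p = 0.011, 4.2e-05 and 4.5e-05). The co-receptors of neurturin and artemin, GFRA2 and GFRA3, fell with 100 nM, by 0.73 and 0.55 (adjusted p = 0.013 and 0.026). Of 10 genes tested, 1 was higher and 1, 1 and 3 were lower in the 3 comparisons, which called 5.52%, 8.02% and 9.48% of all genes. List medians were -0.11, -0.24 and -0.13 beside -0.01, -0.02 and -0.02 for all genes. Between days in DMSO, GFRA3 rose by 1.53 (adjusted p = 4.2e-07) and GFRA2 by 1.05 (adjusted p = 0.00023), as did RET, while the ligand NRTN fell by 1.16 (adjusted p = 1.5e-06) and GAS1 by 0.42 (adjusted p = 0.017).

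NTF4, another ligand of TrkB, showed no call under rotenone. In DMSO its mean was 5.05 on day 15 and 3.73 on day 8, 2.5-fold apart (adjusted p = 0.0025). Its day 8 signal was not well above background, so that the fold is approximate. Among 13 partners of p75 and receptors of pro-neurotrophins, 2 were higher and 1, 1 and 2 lower on day 8. The share of all genes called was 5.52%, 8.02% and 9.48%. MAGED1, which binds p75, fell by 0.56, 0.75 and 0.60 (adjusted p = 0.0039, 0.00023 and 0.0013). SORL1, a sorting receptor, rose by 0.85, 0.65 and 0.67, and RTN4R, the Nogo receptor that partners with p75, by 0.43, 0.41 and 0.47, all past the test. TRAF6 fell by 0.49 with 100 nM (adjusted p = 0.044). Between days RTN4R fell by 0.80 (adjusted p = 1.1e-05) and SORL1 rose by 0.67 (adjusted p = 0.0086).

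Of 13 genes that process pro-neurotrophins, 2, 1 and 1 were called on day 8, against 5.52%, 8.02% and 9.48% of all genes. The counts at 24 h were thus no larger than the shares of all genes. PCSK1, a prohormone convertase of the regulated secretory pathway, rose by 0.94 after 12 h and 0.69 after 24 h of 50 nM (adjusted p = 0.004 and 0.023), and was well above background on 2 of 3 control arrays. SERPINI1, neuroserpin, fell by 0.53 after 12 h and 0.67 after 100 nM (adjusted p = 0.047 and 0.0077). Between days in DMSO, 4 genes rose and 0 fell: PCSK1 by 3.35 (adjusted p = 1.3e-10), PCSK2 by 2.13 (adjusted p = 8.5e-05), CPE by 0.69 (adjusted p = 0.0086) and MMP9 by 1.23 (adjusted p = 0.011). Of all genes, 10.1% were higher and 13.2% lower between days. The list median was 0.02, beside -0.04 for all genes.

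Downstream of the receptors, 25 adaptors were tested, with 5, 1 and 4 higher and 2, 3 and 3 lower on day 8. Among all genes 5.52%, 8.02% and 9.48% were called. SHC3, a neuronal adaptor of Trk receptors, rose by 0.67, 0.83 and 1.01 (adjusted p = 0.0035, 0.0004 and 4.2e-05), and by 1.16 between days (adjusted p = 1.5e-06). SLITRK5, a membrane protein that binds TrkB, fell by 0.40, 0.53 and 0.73 (adjusted p = 0.011, 0.00098 and 4e-05). GIPC1, a PDZ-domain protein that takes part in receptor transport, fell by 0.44, 0.46 and 0.45 (adjusted p = 0.019, 0.01 and 0.0092). DOK4, a substrate of RET, and GAB2 rose after 12 h, by 0.66 and 0.46 (adjusted p = 0.0025 and 0.016), SHC2 rose by 0.50 with 100 nM (adjusted p = 0.013), and GRB2 fell by 0.37 after 24 h of 50 nM (adjusted p = 0.033). Between days GAB2, SH2B3 and SHC4 rose by 0.53, 0.59 and 0.64 (adjusted p = 0.0013, 0.0021 and 0.0022).

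Feedback inhibitors of the ERK pathway, which receptor tyrosine kinases are known to induce, had 3, 2 and 4 higher and 0 lower of 13 on day 8. Their list medians were 0.08, 0.06 and 0.17. Of all genes 2.66%, 3.66% and 4.07% were higher and 2.85%, 4.36% and 5.41% lower. SPRY1 rose by 0.72, 0.73 and 0.78 (adjusted p = 0.00086, 0.00046 and 0.00019). DUSP6, a phosphatase of ERK, rose by 0.41 after 12 h (adjusted p = 0.048) and 0.70 with 100 nM (adjusted p = 0.00069), SPRY4 by 0.61 with 100 nM (adjusted p = 0.016) and LRIG1, an inhibitor of RET and Trk receptors, by 0.35, 0.31 and 0.32 (adjusted p = 0.025, 0.036 and 0.028). Between days 5 rose and 2 fell, where 10.1% of all genes were higher and 13.2% lower. Among them were LRIG1 by -1.15 (adjusted p = 1.5e-08), SPRY1 by -0.62 (adjusted p = 0.00051), SPRY4 by 0.88 (adjusted p = 0.0003) and DUSP4 by 0.58 (adjusted p = 0.00019).

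Transcripts known to rise after Trk or RET signalling went both ways, with 2, 3 and 3 of 19 higher and 3, 2 and 3 lower on day 8. Calls among all genes were at 5.52%, 8.02% and 9.48%. VGF, a secreted neuropeptide precursor, rose by 0.80, 0.59 and 0.68 (adjusted p = 0.0047, 0.025 and 0.0092), and NPTX2, a secreted synaptic pentraxin, by 0.61, 0.79 and 0.75 (adjusted p = 0.028, 0.004 and 0.0049). GAL, the precursor of galanin, rose by 0.99 and 1.04 at 24 h (adjusted p = 0.00051 and 0.00023). The transcription factors EGR1, ETV1 and KLF10 were lower: EGR1 fell by 0.79, 0.63 and 0.52 (adjusted p = 0.0023, 0.01 and 0.028), with 2 of 3 arrays well above background at 24 h in both doses, ETV1 by 0.52, 0.48 and 0.47 (adjusted p = 0.0077, 0.0098 and 0.009), and KLF10 by 0.67 after 12 h and 0.73 with 100 nM (adjusted p = 0.016 and 0.0054). Between days GAL fell by 2.81 (adjusted p = 1.6e-10) and ETV1 by 1.56 (adjusted p = 4.3e-09), and NPTX2 rose by 1.15 (adjusted p = 2.6e-05). FOS was at 6.17 on day 15 and 4.34 on day 8, 3.57-fold apart (adjusted p = 2.2e-07). This fold is approximate, as FOS was not well above background on day 8.

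**Figure D5:**
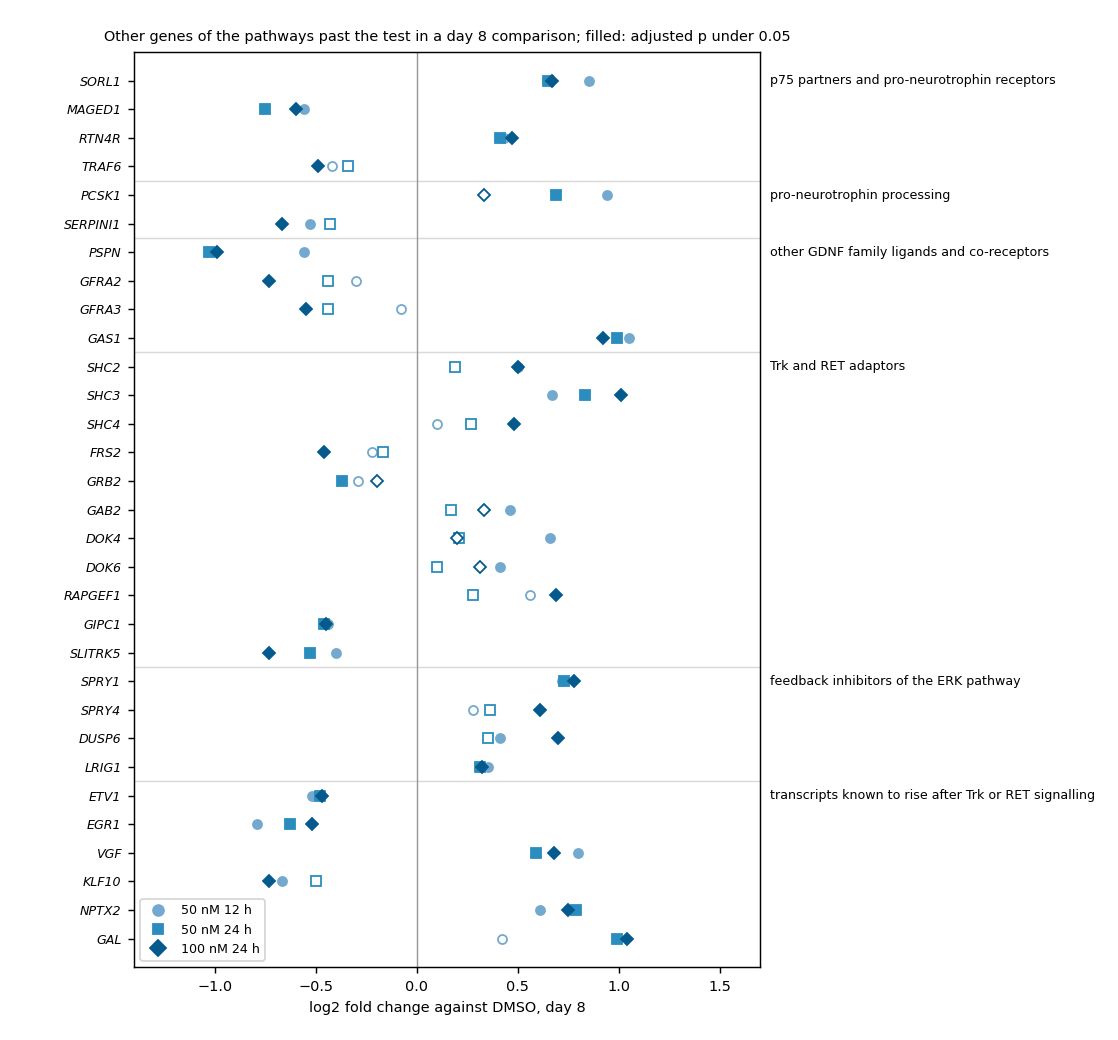
Log2 fold change against DMSO on day 8 (x axis) of the other pathway genes with an adjusted p under 0.05 in at least 1 of the 3 comparisons (y axis, grouped by list); shapes give the exposure and filled symbols an adjusted p under 0.05. GAS1 and PSPN lie farthest apart within their list, and the 4 ERK feedback inhibitors lie right of 0.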

How the data were processed

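RNA of 24 wells, 8 groups of 3, was measured on 1-colour Agilent human arrays on 3 slides, with 1 array of each group per slide. The authors deposited scanner tables with spot intensity, background intensity and a well-above-background mark, made with Feature Extraction 11.5.1.1 per the headers of slides 1 and 3 and 12.0.0.7 per those of slide 2, and a value table of log2 expression; the submitters' processing notes name R 3.5. Per the methods, a subset of arrays, not named there, differed in processing date and in how they were washed, and slide 1 was taken to be this subset, as its share of spots well above background stood apart. Median intensities were background-corrected (normexp with the median background, offset 0) and quantile normalized in limma 3.58.1 (R 4.3.3), and slide 1 was adjusted to slides 2 and 3 with a parametric ComBat written for this purpose, with groups as covariates. Outlier-flagged spots were removed (6756 values), as were control spots. A spot was kept if, on 3 arrays or more, it exceeded by a factor of 1.1 the 95th percentile among 308 negative control spots. Probes were averaged per gene on the log2 scale, which gave 21239 genes, and 48316 probes were fitted separately. All 8 groups entered 1 limma fit (lmFit, eBayes, 16 residual degrees of freedom), and p-values were adjusted by Benjamini-Hochberg over all genes or all probes. A gene was called at an adjusted p under 0.05. Since the number of arrays limits the precision, 95% intervals are given. Where a gene was not well above background on any array of a group, the mean of the other group was set against the higher of 2 signals. These were the array's dimmest signal well above background and the gene's own. For NTF4 and FOS the gene's own was the higher, so that the fold rests on the observed means and is no guaranteed minimum.

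The replicate number was the slide: before the correction same-numbered arrays, 84 pairs, all deviated together from their group means (r at least 0.171, median 0.458), while 168 pairs of different number had a median of -0.354, so that the number pairs the samples. After it the medians were 0.0169 and -0.00773, but 27 of the 84 same-numbered pairs still had an r over 0.1, and the lowest was -0.431. The main fit carried no block, as slide 1 had been corrected, and a fit with the block was run as an alternative. The deposited value table correlated at 0.989 to 0.992 with these values over 19610 shared genes and served as an alternative, on a log2 scale with array medians of 6.42 to 6.64.

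The 8 genes, the pathway lists, the marker lists and the tests were chosen with earlier results of these data known. All 8 genes are named in every comparison, and for each pathway list at most 4 genes with the smallest p among those called, per comparison. The test of differences between probes of the same gene, for genes with 2 to 6 probes, was added after the values of single probes were seen. Alternatives were the processed signal, an offset of 50, scaling to the 75th percentile, no slide correction, the correction without covariates, slides 2 and 3 alone, a fit on the compared groups alone, the replicate block, other filters, the brightest probe per gene, the deposited values and each array left out. The script was tested on simulated data. Probe sequences were not used here, and NGFR had no entry among the upstream sequences. Some genes of the lists are not reported here.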

Additional observations from a re-analysis of the deposited data

Results flagged for a closer look

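The effect of a rotenone exposure, tested as an interaction in limma, differed between day 8 and day 15 for 2 genes and 3 probes, each value being the log2 fold change on day 15 minus that on day 8. For NTRK3 after 50 nM for 24 h it was 1.04 ± 0.15 (SE, adjusted p = 0.001), where the gene was lower with rotenone on day 8 and overlapped with DMSO on day 15. For NGFR after the same exposure it was 0.77 ± 0.19 (adjusted p = 0.036), with 3 of 3 arrays below the controls on day 8. At the level of probes, BDNF A_23_P127891 gave -0.93 ± 0.18 after 50 nM for 12 h (adjusted p = 0.034), and NTRK3 A_23_P205900 and A_33_P3322814 gave 1.3 ± 0.29 (adjusted p = 0.045) and 1.1 ± 0.19 (adjusted p = 0.0091) after 50 nM for 24 h, where 0.344% and 0.664% of all probes were called at 12 h and 24 h. With single arrays left out, the adjusted p was 0.015 to 0.11 for A_23_P127891, 0.016 to 0.14 for A_23_P205900 and 0.0024 to 0.033 for A_33_P3322814, and 0.025 to 0.099 for the gene NGFR. The single probe of NGFR was not among the called probes, and adjusted over all probes its p was 0.065 to 0.23 in these refits. With the replicate block the adjusted p was 0.051 for A_23_P127891 and 0.087 for A_23_P205900.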

How the results depend on the processing

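The falls of NTRK3 after 24 h of rotenone and the 5 differences between days in DMSO were past the test with every array left out in turn, and no called difference of the 8 genes turned its direction under any alternative. Over all called differences of the 8 genes, 146 of the values under other settings were on the same side of the threshold and 23 were no longer past it. The numbers of the 8 genes called follow. At 12 h of 50 nM, 2 in the main setting, it was 1 with the processed signal, an offset of 50, scaling to the 75th percentile or the brightest probe, 0 without slide correction, on slides 2 and 3 or with only the compared groups, and 0 to 0 without single arrays. At 24 h of 50 nM, 2 in the main setting, it was 1 without slide correction and on slides 2 and 3, and 2 to 2 without single arrays. At 100 nM, 1 in the main setting, it was 3 with an offset of 50, the brightest probe or the deposited values, 2 with the filter on the well-above-background mark, and 1 to 2 without single arrays. Between 24 h and 12 h of 50 nM, 1 in the main setting, it was 0 with the 75th percentile, without slide correction, on slides 2 and 3, with only the compared groups or with the brightest probe, and 0 to 1 without single arrays. The number for the difference between days was 0 at 12 h and became 1 with an offset of 50, the brightest probe or the deposited values. At 50 nM for 24 h it was 2 and became 1 with the 75th percentile, without slide correction, with the correction without covariates, on slides 2 and 3 or with only the compared groups, and 1 to 2 without single arrays. At 100 nM it was 0 and became 1 with the processed signal, the filter on the mark or the deposited values, and 0 to 1 without single arrays. The cause of these changes was not tested.

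With the replicate number as a block, which pairs the arrays of a slide, 1 gene was called at 12 h (BDNF) and 2 at 100 nM (NGFR and NTRK3), and the other counts of the 8 genes did not change. The other pathway genes called were 21, 19, 27 and 37 with the block in place of 22, 17, 26 and 37. Without slide correction they were 3, 7, 10 and 21, on slides 2 and 3 they were 1, 3, 6 and 21, and with only the compared groups 1, 6 and 15 for the rotenone comparisons. Without single arrays they were 12 to 16, 11 to 15, 16 to 21 and 30 to 34.

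Of the single probes, 1 was called at 12 h (2 with the block or the processed signal, 3 with an offset of 50, 1 to 2 without single arrays), 4 at 24 h of 50 nM (2 to 4), 3 at 100 nM (5 with the offset, 1 to 3) and 8 between days (8 to 8). For the difference between days these were 1 at 12 h (0 with the block or the processed signal, 0 to 1), 2 at 50 nM for 24 h (1 with the block, 1 to 3) and 0 at 100 nM (1 with the processed signal, 0 to 1). The processed signal moved the median of all genes to 0.10 from -0.02 at 100 nM on day 8 and to 0.15 from -0.04 between days, and scaling to the 75th percentile moved it to 0.16 from 0 and to 0.14 from -0.01 for the change of the 12 h and 100 nM effects between days. GDNF and NTRK2 were near background, so that changes of these genes were not detectable at this signal.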

Other observations

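Genes whose log2 signals were among the 3 that followed each measured member most closely over the 24 arrays, among 15605 genes, are given by Pearson's r as a description without a test, since the arrays share slides, groups and days. For BDNF they were SNORD36A (0.976) and FLVCR1 (0.964). For NTF3 they were KRT33B (0.969), PARM1 (0.965) and TCF4 (0.965). For NTRK3 they were FAM181B (0.962), ACKR1 (0.962) and KIAA1549L (0.96). For NGFR they were SUGP2 (0.958), RHBDD2 (0.947) and AP3B2 (0.942). For GFRA1 they were CNTN2 (0.98), AKR7A2 (0.975) and THBS3 (0.974). For RET they were PTPRR and SCGN, each at 0.987.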
